A study of Mus musculus with 7 samples.

Results

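Steroid conversion was followed through 8 genes in hepatocyte RNA of mouse liver: Cyp17a1, Hsd3b2, Hsd3b3, Hsd3b5, Hsd11b1, Hsd17b2, Hsd17b6 and Srd5a1. They were chosen by symbol, with earlier results of the same comparison known, and all 8 of 8 were found among the 12151 genes of the deposited table. All 8 also passed the filter on low values, at least 1 CPM in at least 3 libraries, that left 12105 genes for testing. CPM is reads scaled to the library size set by the authors, as the deposited values carry it. Because the choice rested on this comparison, differences in these 8 genes are given as values with intervals and without p-values, and nothing is concluded from how many of them differ.

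Wild-type hepatocytes (WT, no treatment) gave 3 libraries, and 4 libraries were labelled ALAS1/2-KO and tamoxifen. By the design, the ALAS1/2-KO mice carried a conditional Alas1 allele whose exons 4 to 5 Cre removes upon induction, and received siRNA against Alas2 linked to GalNAc, a sugar that hepatocytes take up. The sources used here do not give the Cre line or the age, sex and strain of the mice. The effects of deletion, tamoxifen and siRNA cannot be told apart. Nothing says that libraries came from separate animals, so every spread and p-value describes these libraries and may be technical.

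The targeted genes were read first. Alas2 stood at 16.9, 10.3 and 6.65 CPM in WT replicates 1 to 3 and at 0.333, 0.800, 0.428 and 0.198 CPM in ALAS1/2-KO replicates 1 to 4. Alas1 stood at 280, 265 and 83.5 CPM in WT and at 287, 332, 307 and 361 CPM in ALAS1/2-KO. A sum over the whole Alas1 gene does not check the loss of some of its exons. Reads recovered per library ran from 22916097 to 34048680, and all 8 hepatocyte markers were present, summing to 112050 to 120180 CPM in WT and 71453 to 77079 CPM in ALAS1/2-KO, with 1 called lower. Mitochondrial reads made up 31.9% to 43.2% of the reads in WT and 16.8% to 27.3% in ALAS1/2-KO, and the ratio of the authors' library size to listed reads also differed (WT 0.801 to 1.003, ALAS1/2-KO 1.069 to 1.184). Their part in the values below was not tested beyond rescaling. Markers of other cells differed among libraries: 18 genes of endothelial, stellate and Kupffer cells summed to 851 to 1158 CPM in WT and to 211, 547, 1168 and 995 CPM in ALAS1/2-KO replicates 1 to 4, none of the 18 passing the test. The 3 lists differed: Kupffer markers summed to 492 to 656 CPM in WT and 123, 357, 771 and 706 CPM in ALAS1/2-KO. Endothelial markers summed to 212 to 262 CPM in WT and 52.9, 117, 225 and 168 CPM in ALAS1/2-KO. For stellate markers the sums were 147 to 270 CPM in WT and 35.4, 72.4, 172 and 121 CPM in ALAS1/2-KO. Other lists were lower in all ALAS1/2-KO libraries, with 1 gene called lower in each: red cell markers (4 of 4 analysed) summed to 11.3 to 41.3 CPM in WT and 2.75 to 7.39 CPM in ALAS1/2-KO, cholangiocyte markers (2 of 5) to 12.1 to 21.1 and 2.72 to 5.35 CPM, and lymphocyte markers (1 of 4) to 1.98 to 3.02 and 0.212 to 0.862 CPM. Alas2 is the form used by red cell precursors, and the part of red cell RNA in its difference was not tested. Of 10 markers of adrenal cortex and Leydig cells, the cells that make steroids from cholesterol, 1 was analysed here, Star, at 0.554 to 1.48 CPM over all libraries.

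The liver makes little steroid hormone but changes and clears much of what the blood brings. Dehydrogenases move hydrogen between hydroxyl and keto groups of the steroid ring and so switch hormones on or off, reductases saturate the ring, and conjugating enzymes then attach sugar acid or sulfate for export. In rodents several of these genes differ between male and female liver, and Hsd3b5 is a classical male-specific gene.

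The 3 Hsd3b genes followed here lie in a cluster on chromosome 3 and share much sequence. On mm10, all on the minus strand, Hsd3b5 (ENSMUSG00000038092.6) spans 98618634 to 98630252, Hsd3b2 (ENSMUSG00000063730.13) 98709255 to 98724543 and Hsd3b3 (ENSMUSG00000062410.14) 98741523 to 98763127. Their coding sequences are 1119 nt each, and Hsd3b2 and Hsd3b3 are identical at 95.1% of aligned positions. Hsd3b5 is identical to Hsd3b2 at 80.4% and to Hsd3b3 at 79.5%, and to Hsd3b4, which was not analysed here, at 95.2%. Of the windows of 50 nt along the longest coding transcript, 27.3% for Hsd3b2, 34.0% for Hsd3b3 and 21.2% for Hsd3b5 also occur in a transcript of another gene. With windows of 100 nt these shares were 8.51%, 17.2% and 7.79%. Reads from such stretches cannot be assigned to 1 gene with certainty, so the values of single Hsd3b genes are uncertain to that extent.

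In the 250 bases before the annotated starts, Hsd3b5 aligned at length with Hsd3b3 and only briefly with its nearer neighbour Hsd3b2. The stretches are shown because, of the 3 genes, Hsd3b5 alone did not overlap between the groups. The 250 bases before the RefSeq start are given 5′ to 3′ on the minus strand of GRCm38.p6 (mm10), at chr3:98645535-98645784 for Hsd3b5, chr3:98763129-98763378 for Hsd3b3 and chr3:98724544-98724793 for Hsd3b2. Capitals mark the 5 runs of at least 8 bases that are identical between Hsd3b5 and Hsd3b3 in a local alignment.
Hsd3b5: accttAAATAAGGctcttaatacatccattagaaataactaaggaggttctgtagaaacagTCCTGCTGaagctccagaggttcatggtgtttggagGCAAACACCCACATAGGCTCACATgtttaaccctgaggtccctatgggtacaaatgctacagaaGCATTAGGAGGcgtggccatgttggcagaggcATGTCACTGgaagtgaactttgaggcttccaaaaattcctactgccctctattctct
Hsd3b3: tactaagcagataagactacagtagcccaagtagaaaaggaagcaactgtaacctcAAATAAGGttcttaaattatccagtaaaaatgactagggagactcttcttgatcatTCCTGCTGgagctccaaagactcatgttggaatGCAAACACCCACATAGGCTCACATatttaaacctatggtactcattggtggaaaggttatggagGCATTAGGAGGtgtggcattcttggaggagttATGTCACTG
Hsd3b2: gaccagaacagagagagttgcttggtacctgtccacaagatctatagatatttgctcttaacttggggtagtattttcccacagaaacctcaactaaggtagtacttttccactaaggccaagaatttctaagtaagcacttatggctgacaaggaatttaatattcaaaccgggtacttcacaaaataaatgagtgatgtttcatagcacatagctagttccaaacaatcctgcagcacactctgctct
The Hsd3b5 and Hsd3b3 windows aligned over 199 positions with 75.9% identity, and the longest identical run had 24 bases. The Hsd3b2 window aligned with that of Hsd3b5 over 31 positions. The window of a second RefSeq start of Hsd3b3, at chr3:98762411-98762660, aligned with that of Hsd3b5 over 200 positions with 76.5% identity. The RefSeq start of Hsd3b5 lies 15282 nt from the gene start in GENCODE M21, so that window depends on the annotation. Likeness beyond the windows at annotated starts was not tested. RefSeq windows were matched for 6 of the 8 genes.

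Motifs of liver regulators were searched on both strands in RefSeq windows from 250 bases before to 50 bases after each start. The STAT5 site TTCNNNGAA, bound by the factor that relays growth hormone, occurs in 8.30% of all 32851 windows and in none of the windows of the 6 genes. The same held for the nuclear receptor element AGGTCA (16.3% of all windows), the TATA box TATAAA (13.6%) and the C/EBP palindrome TTGCGCAA (0.183%). The HNF4 core CAAAGTCCA, found in 0.475% of all windows, occurred in Hsd3b3 alone, on the reverse strand just after the start. The search says which letters the windows hold and nothing about binding.

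The 4 ALAS1/2-KO values of Hsd3b5 and of Cyp17a1 all lay below the WT range, and those of Hsd17b6 and of Srd5a1 all lay above it. Hsd3b2, Hsd3b3, Hsd11b1 and Hsd17b2 overlapped between the groups. These first 4 genes also passed the limma threshold, an adjusted p under 0.05 over all genes tested, against 5.1% of all 12105 genes. Among all genes 2.91% were called higher and 2.19% lower in ALAS1/2-KO, and the groups did not overlap for 22.7% (11.3% higher and 11.4% lower). The comparison is the one that chose the 8 genes, so the counts describe them only. Each log2 fold change is the fitted difference of mean log2 CPM (ALAS1/2-KO minus WT), folds are taken from it, and neither is the ratio of the CPM means. The median log2 fold change was -0.04 for the 8 genes and -0.02 for all genes tested.

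**Figure D1:**
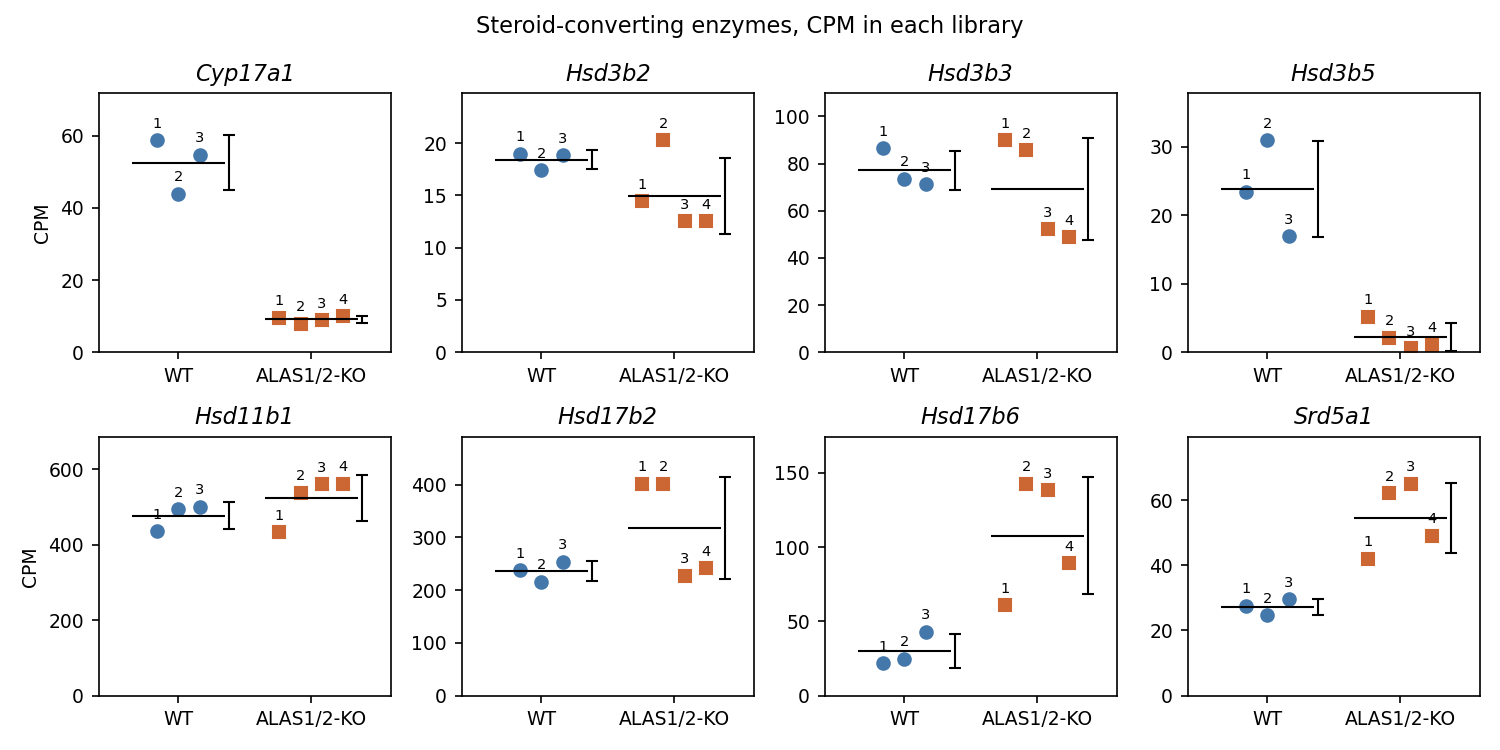
CPM of the 8 genes in each library (y axis, linear from 0), with WT as circles, ALAS1/2-KO as squares, the replicate number beside each point, a line at the group mean and a bar of 1 SD. Cyp17a1, Hsd3b5, Hsd17b6 and Srd5a1 do not overlap between the groups, and for Hsd3b3 and Hsd17b2 ALAS1/2-KO replicates 1 and 2 lie apart from 3 and 4.

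Among enzymes that act early in steroid synthesis, Cyp17a1 had the narrowest interval of the 4 called genes. Cyp17a1 is a heme enzyme that hydroxylates progesterone and pregnenolone and cleaves their side chain on the way to androgens. Cyp17a1 (ENSMUSG00000003555.8, chromosome 19, 46667165 to 46673172, minus strand) stood at 58.8, 43.9 and 54.8 CPM in WT replicates 1 to 3 and at 9.59, 7.94, 8.89 and 9.93 CPM in ALAS1/2-KO replicates 1 to 4. The highest ALAS1/2-KO library lay far below the lowest WT library, and the 4 libraries differed by no more than 1.25 times. The means were 52.5 ± 7.67 CPM (SD, n = 3) and 9.09 ± 0.877 CPM (SD, n = 4). The fitted log2 fold change was -2.52 (SE 0.13, 95% interval -2.81 to -2.22). Cyp17a1 passed the threshold in all 18 alternatives run, which include the 7 fits without a library. With CPM rescaled to listed reads its log2 fold change was -2.18. None of its windows of 50 nt occurs in another gene.

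Hsd3b5 had the largest difference of the 8 genes and the widest spread. Its product is a keto-steroid reductase, unlike most enzymes of the family, which oxidise the hydroxyl group and shift the ring's double bond. Hsd3b5 stood at 23.4, 31.0 and 17.0 CPM in WT replicates 1 to 3 and at 5.20, 2.09, 0.581 and 1.09 CPM in ALAS1/2-KO replicates 1 to 4. ALAS1/2-KO replicate 1 was 8.96 times as high as replicate 3, the lowest, whose value rests on 19 reads. The means were 23.8 ± 7.03 CPM (SD, n = 3) and 2.24 ± 2.07 CPM (SD, n = 4). The mean log2 CPM differed by -3.76 (SE 0.66, 95% interval -5.32 to -2.20). Its pooled SD within groups, 1.04 on the log2 scale, exceeded that of 98.7% of genes tested, with a median of 0.21. The call was kept in 2 of 7 fits without a library and was lost without any 1 of the WT libraries or without ALAS1/2-KO replicate 2 or 4, where the log2 fold change was -3.75, -3.55, -3.98, -3.87 and -3.57. With log2(CPM + 1) the difference was -3.10, since the larger pseudocount shrinks low values.

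The other 2 members of the cluster did not show such a difference. Hsd3b2 and Hsd3b3 encode dehydrogenase-isomerases, the enzymes that turn pregnenolone into progesterone. Hsd3b2 stood at 19.0, 17.4 and 18.9 CPM in WT replicates 1 to 3 and at 14.4, 20.3, 12.5 and 12.5 CPM in ALAS1/2-KO replicates 1 to 4, so ALAS1/2-KO replicate 2 was the highest library of all and the other 3 the lowest. The log2 fold change was -0.33 (SE 0.17, 95% interval -0.72 to 0.06). Hsd3b3 stood at 86.6, 73.6 and 71.3 CPM in WT and at 89.9, 85.7, 52.1 and 48.8 CPM in ALAS1/2-KO, where replicates 1 and 2 lay within or above the WT range and replicates 3 and 4 below it. The log2 fold change was -0.21 (SE 0.24, 95% interval -0.75 to 0.33). Both intervals include 0. With CPM rescaled to listed reads, which moved the median of all genes to 0.32, the values were 0.00 for Hsd3b2 and 0.13 for Hsd3b3, so their direction depends on the scaling. Without ALAS1/2-KO replicates 1 and 2, which had the lowest sums of non-parenchymal markers (211 and 547 CPM), they were -0.55 and -0.61. Both passed the threshold in that fit, as did 1130 of all 12105 genes tested. The fit leaves out the highest ALAS1/2-KO values of both genes, which by itself lowers the estimates, so nothing is concluded from it. The part of non-parenchymal cells in the values was not tested.

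Hsd3b5 made up less of the summed level of the 3 followed Hsd3b genes in each ALAS1/2-KO library than in WT. Hsd3b7, on chromosome 7, is not in the sum. Per kilobase of the longest coding transcript, Hsd3b5 took 19.7%, 27.5% and 17.5% of the summed CPM of the 3 genes in WT replicates 1 to 3 and 5.09%, 2.15%, 0.993% and 1.96% in ALAS1/2-KO replicates 1 to 4. Hsd3b3 took 71.3% ± 4.60 (SD, n = 3) and 89.2% ± 0.612 (SD, n = 4), and Hsd3b2 7.11% ± 0.918 and 8.27% ± 1.59. The sum of the 3 genes was 70.7 ± 7.33 CPM per kb in WT and 50.6 ± 15.9 CPM per kb in ALAS1/2-KO. Shares depend on the transcript lengths taken, 3695 nt for Hsd3b2, 1533 nt for Hsd3b3 and 1549 nt for Hsd3b5.

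**Figure D2:**
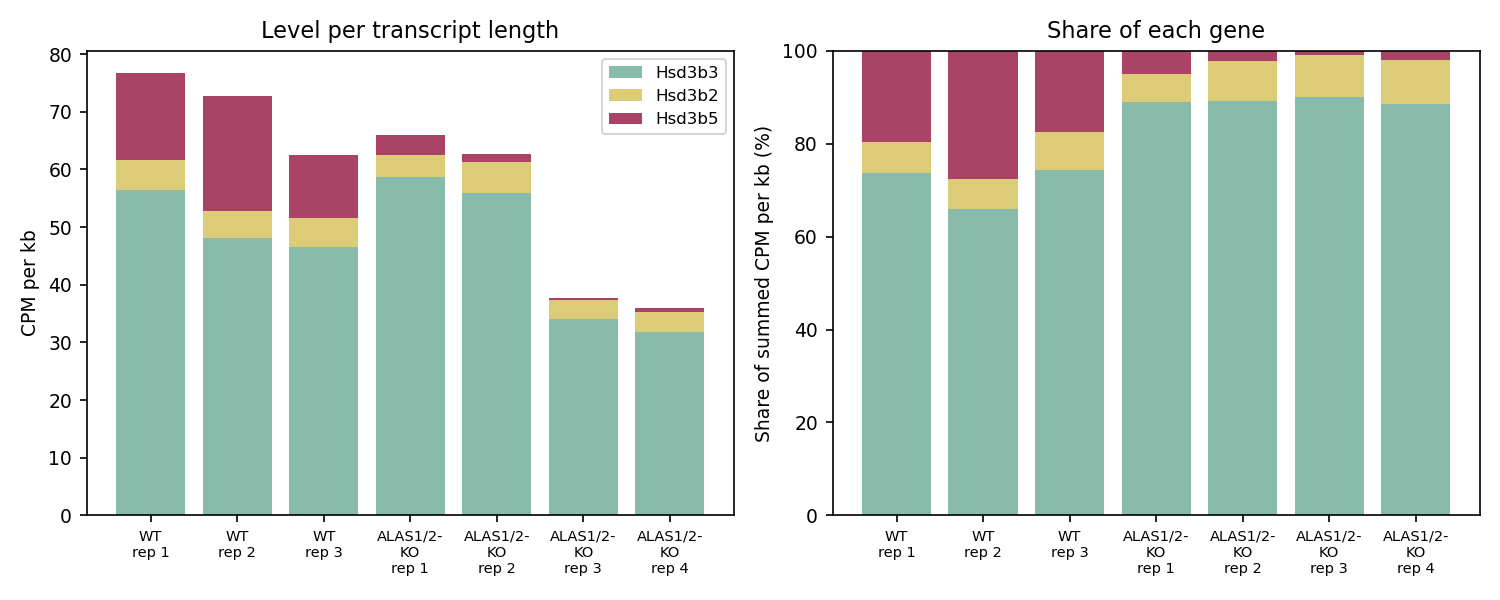
Stacked bars of Hsd3b3, Hsd3b2 and Hsd3b5 in each library, as CPM per kb of the longest coding transcript (left) and as percent of the sum of the 3 genes (right). Hsd3b5 makes up 17.5% to 27.5% in WT and 0.993% to 5.09% in ALAS1/2-KO, and the sum is lowest in ALAS1/2-KO replicates 3 and 4.

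Of the enzymes acting on androgens and estrogens, Hsd17b6 and Srd5a1 were higher in ALAS1/2-KO. Hsd17b6 is a dehydrogenase related to the retinol dehydrogenases, known for oxidising androstanediol back to the potent androgen dihydrotestosterone. Hsd17b6 (ENSMUSG00000025396.7, chromosome 10, 127990936 to 128007611, minus strand) stood at 21.8, 24.9 and 43.1 CPM in WT replicates 1 to 3 and at 61.0, 143, 138 and 89.1 CPM in ALAS1/2-KO replicates 1 to 4. The highest WT library, replicate 3, came nearest to the lowest ALAS1/2-KO library, replicate 1. The means were 29.9 ± 11.5 CPM (SD, n = 3) and 108 ± 39.5 CPM (SD, n = 4). The fitted fold was 3.55 (log2 fold change 1.83, SE 0.36, 95% interval 0.99 to 2.67). The call was kept in 2 of 7 fits without a library, and was lost without WT replicate 1 or 2 (log2 fold change 1.63 and 1.73) and without ALAS1/2-KO replicate 2, 3 or 4 (1.67, 1.68 and 1.89). Retinol dehydrogenase genes share 13.5% of its windows of 50 nt.

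Srd5a1 encodes a steroid alpha-reductase, which turns testosterone into dihydrotestosterone and also starts the breakdown of glucocorticoids. Srd5a1 (ENSMUSG00000021594.11, chromosome 13, 69573449 to 69611442, minus strand) stood at 27.6, 24.6 and 29.6 CPM in WT replicates 1 to 3 and at 42.1, 62.0, 65.1 and 49.1 CPM in ALAS1/2-KO replicates 1 to 4. All 4 ALAS1/2-KO libraries lay above the WT range, and, as for Hsd17b6, replicates 2 and 3 were higher than replicates 1 and 4. The means were 27.3 ± 2.53 CPM (SD, n = 3) and 54.6 ± 10.8 CPM (SD, n = 4). The fitted fold was 1.97 (log2 fold change 0.98, SE 0.16, 95% interval 0.61 to 1.35). The call was lost without WT replicate 1 or 2, where the log2 fold change was 0.99 and 0.91, and kept in the other 5 of 7 fits. The gene model Gm17108 shares 16.5% of its windows of 50 nt, and Srd5a1 adjoins Nsun2 (log2 fold change 0.10), so with strand handling unknown some reads may be shared.

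Hsd17b2 did not separate the groups but divided the ALAS1/2-KO libraries. The enzyme oxidises estradiol and testosterone to weaker keto forms. Hsd17b2 (ENSMUSG00000031844.8, chromosome 8, 117701904 to 117759027, plus strand) stood at 238, 216 and 253 CPM in WT replicates 1 to 3 and at 401, 402, 227 and 241 CPM in ALAS1/2-KO replicates 1 to 4. Replicates 1 and 2 lay above every WT library, and replicates 3 and 4 fell inside the WT range. The log2 fold change was 0.38 (SE 0.23, 95% interval -0.14 to 0.91), and -0.01 without replicates 1 and 2. Hsd3b3 was likewise highest in ALAS1/2-KO replicates 1 and 2, the 2 libraries of that group with the least non-parenchymal marker RNA. In bulk RNA a shift in the share of cells and a shift in RNA per cell cannot be told apart.

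Hsd11b1 was the most abundant of the 8 genes and had the smallest difference. It regenerates active glucocorticoid from its inert keto form inside hepatocytes. Hsd11b1 (ENSMUSG00000016194.14, chromosome 1, 193221634 to 193264075, minus strand) stood at 436, 494 and 501 CPM in WT replicates 1 to 3 and at 432, 538, 561 and 562 CPM in ALAS1/2-KO replicates 1 to 4. ALAS1/2-KO replicate 1 was the lowest library of all and the other 3 lay above every WT library. The means were 477 ± 35.9 CPM (SD, n = 3) and 523 ± 61.4 CPM (SD, n = 4). The fitted log2 fold change was 0.13 (SE 0.13, 95% interval -0.16 to 0.42). It passed the threshold in 1 of 18 alternatives, with CPM rescaled to listed reads (log2 fold change 0.46).

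**Figure D3:**
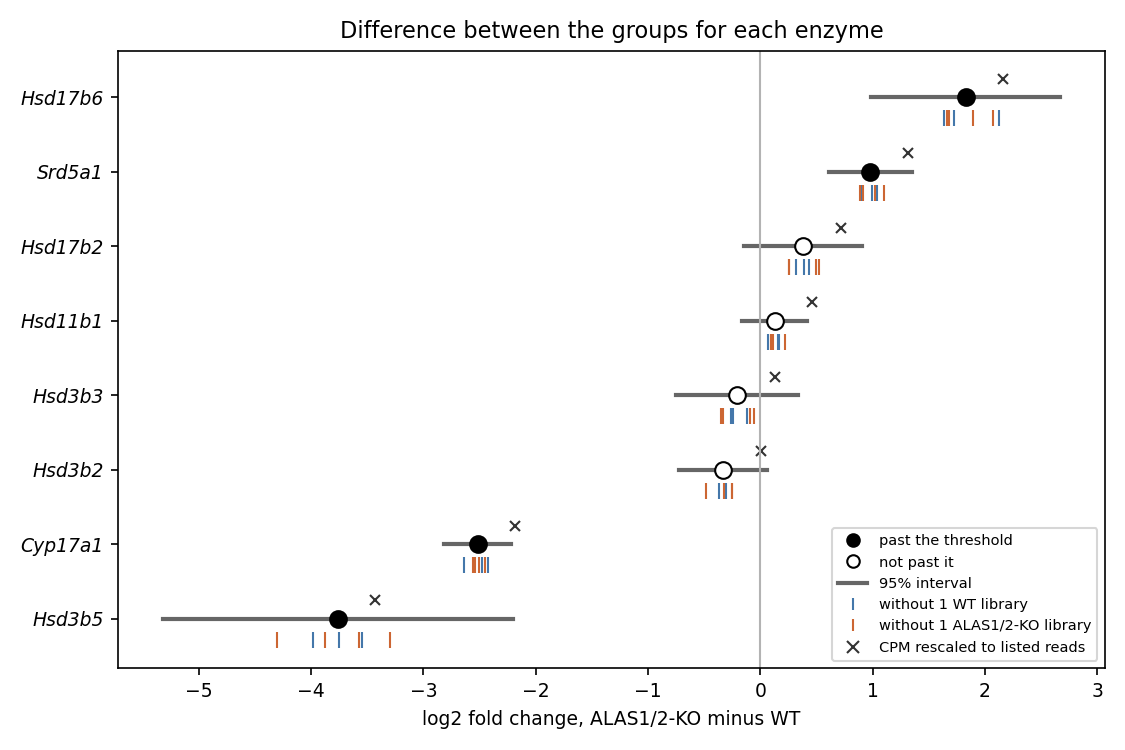
Log2 fold change (ALAS1/2-KO minus WT, x axis) of each gene, with its 95% interval as a bar; filled points passed the limma threshold, ticks below give the fits without 1 library and crosses above give CPM rescaled to listed reads. Cyp17a1 at -2.52 has the narrowest bar among the 4 called genes and Hsd3b5 at -3.76 the widest, and Hsd3b2 and Hsd3b3 lie at or across 0 after rescaling.

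Per transcript length, the order of the 8 genes differed between the groups. In WT, Hsd11b1 led at 294 ± 22.1 CPM per kb (SD, n = 3), followed by Hsd17b2 at 179 ± 14.1 and Hsd3b3 at 50.3 ± 5.38, with no overlap between these neighbours. Cyp17a1 (21.8 ± 3.19 CPM per kb), Hsd17b6 (19.7 ± 7.57) and Hsd3b5 (15.4 ± 4.54) came next with overlapping ranges, the range of Hsd3b5 also overlapping that of Srd5a1 (10.3 ± 0.956), and Hsd3b2 was lowest at 4.98 ± 0.242. In ALAS1/2-KO, Hsd11b1 (322 ± 37.9 CPM per kb, n = 4) and Hsd17b2 (241 ± 73.2) overlapped. Hsd17b6 (70.8 ± 26.0) had moved to the place after them, overlapping Hsd3b3 (45.1 ± 14.1), and Srd5a1 stood at 20.6 ± 4.10. Hsd3b2 (4.04 ± 0.995), Cyp17a1 (3.78 ± 0.365) and Hsd3b5 (1.45 ± 1.34) closed the order, each overlapping the next.

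Other genes of steroid metabolism, transport and response, in 5 lists with 80 genes tested, changed in both directions. Limma called 7 higher and 7 lower, 17.5% of the tested genes against 5.1% of all genes. The lists include 13 receptors and carriers and 20 glucocorticoid-responsive genes, so this is not a rate for steroid metabolism alone. They were chosen with earlier results of these data known, so nothing is concluded from the shares, and p-values describe the named genes only. Of 20 other dehydrogenases and reductases, 2 rose and 1 fell. Akr1c6, an aldo-keto reductase that acts on the same hydroxyl group as the Hsd17b enzymes, averaged 426 ± 73.9 CPM (SD, n = 3) in WT and fell to 162 ± 40.5 CPM (SD, n = 4) in ALAS1/2-KO, with a limma adjusted p of 0.00798. Cbr1, a carbonyl reductase, rose 1.57-fold (limma adjusted p = 0.0188), and Hsd17b10, a mitochondrial dehydrogenase, 2.09-fold (limma adjusted p = 0.0263). Of 13 genes of hydroxylation and electron supply, 1 rose and 2 fell. Por, which passes electrons to Cyp17a1 and other P450 enzymes, rose 2.92-fold (limma adjusted p = 0.0353), while H6pd, which supplies Hsd11b1 with NADPH, averaged 296 and 319 CPM and was not called. Cyp7b1, a steroid hydroxylase, fell by 2.32 on the log2 scale (limma adjusted p = 0.0307) and Cyp2a5 fell by 1.35 (limma adjusted p = 0.0373). Cyp2a4, also in this list, had a log2 fold change of 1.00 and was not called. Whether Cyp2a4 and Cyp2a5 share reads was not tested. Without WT replicate 2 the adjusted p in limma was 0.0543 for Akr1c6, 0.110 for Cbr1, 0.118 for Hsd17b10, 0.154 for Por, 0.113 for Cyp7b1 and 0.162 for Cyp2a5, and in that order they passed 6, 5, 3, 3, 1 and 2 of 7 such fits.

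**Figure D4:**
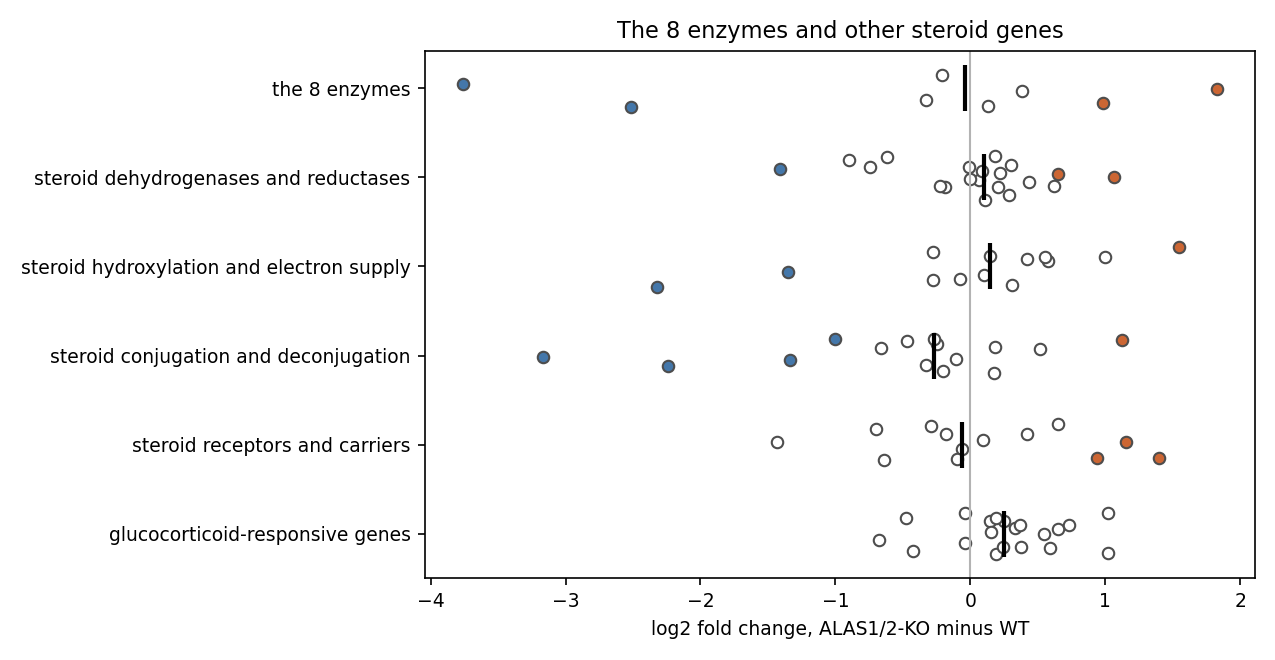
Log2 fold change (ALAS1/2-KO minus WT, x axis) of the 8 genes and of the 5 lists of other steroid genes, 1 point a gene, with filled points past the limma threshold (right of 0 higher, left of 0 lower), open points not past it and a tick at the list median. Called genes lie on both sides in the first 3 lists, on the right alone among receptors and carriers, and none is called among glucocorticoid-responsive genes.

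Conjugation and transport genes also had calls. Of 15 conjugation genes, 1 rose and 4 fell, among them the glucuronosyltransferases Ugt2b1, which fell by 3.17 on the log2 scale (limma adjusted p = 0.00154), and Ugt2b36, which fell by 1.00 (limma adjusted p = 0.0280). Ugt1a1, which also clears bilirubin, rose 2.18-fold (limma adjusted p = 0.00606). Near-identical Ugt2b genes may share reads and are uncertain as single genes. Of 13 receptors and carriers, 3 rose and 0 fell, and limma voom called 4. Serpina6, the glucocorticoid carrier of plasma, averaged 334 ± 28.2 CPM (SD, n = 3) in WT and rose to 746 ± 88.7 CPM (SD, n = 4), with a limma adjusted p of 0.00349. Esr1, an estrogen receptor, rose 1.92-fold (limma adjusted p = 0.0171) and Slco1a4, an organic anion transporter, 2.64-fold (limma adjusted p = 0.0386). Without WT replicate 2 the adjusted p in limma was 0.129 for Ugt2b36, 0.101 for Esr1 and 0.156 for Slco1a4. Over the 7 fits that each left out 1 library, Ugt2b36 passed in 3, Esr1 in 6 and Slco1a4 in 2, and Serpina6, Ugt1a1 and Ugt2b1 passed in 7.

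Glucocorticoid-responsive genes, listed beside Hsd11b1, gave no call. Limma called 0 of 20, against 5.1% of all genes tested, and limma voom called 0. An unadjusted limma p under 0.05 was found for 2 of 20, against 23.7% of all genes tested. The list had a median log2 fold change of 0.25 against -0.02 for all genes. Mt1 alone of the list did not overlap between the groups, at 149 to 260 CPM in WT and 297 to 362 CPM in ALAS1/2-KO. Its log2 fold change was 0.59 (limma adjusted p = 0.119). Pck1, of gluconeogenesis, stood at 2546, 1702 and 1237 CPM in WT and at 2294, 1724, 2029 and 1991 CPM in ALAS1/2-KO. Tat, a tyrosine aminotransferase, stood at 1129, 767 and 289 CPM in WT and at 876, 736, 651 and 935 CPM in ALAS1/2-KO. Tat was second in level by the WT mean, and Errfi1, a feedback inhibitor of growth factor receptors, was close to it with group means of 717 CPM (WT) and 832 CPM (ALAS1/2-KO). For Pck1 and Tat, WT replicate 3 was the lowest library and WT replicate 1 the highest. The highest WT library was 2.06 times the lowest for Pck1 and 3.91 times for Tat. Such spread limits calls, so the lack of calls does not show that the response was unchanged.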

How the data were processed

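The authors deposited 1 table of log2 CPM, and per the submitters' processing notes reads were trimmed with cutadapt and aligned with HISAT2 to mm10. The sources used here do not give versions, the read counter, the annotation or the scaling. Per the labels' protocols, 1 µg of total RNA entered each TruSeq library (kit version 2). CPM was 2 to the power of the deposited value minus a floor of 0.0676, and 100% of values were then whole multiples of a step per library, within 0.01 reads, 0.0293 to 0.0522 CPM per read.

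The deposited log2 values were fitted with limma 3.58.1 in R 4.3.3 (trend, robust moderation, two-sided, Benjamini-Hochberg over 12105 genes, threshold 0.05). The step was also run on simulated data, whose outcome is not given here, so nothing is concluded from that run. Members and lists were chosen with earlier results of these data known. Named were the 8 genes, and per list up to 3 called genes by ascending p (with none called, the 2 of highest WT mean), and per member the 2 genes most alike, of which 1 is not reported here. H6pd, Cyp2a4, Hsd3b7, Errfi1, Mt1, Akr1d1 and neighbouring genes were added after the values were seen. Lengths, positions and shared windows came from GENCODE M21. Alternatives were pseudocounts, filters, scalings, variance models, a replicate block and left-out libraries. The planned edgeR fit was not run, because the deposited unit is log2 and not counts.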

Additional observations from a re-analysis of the deposited data

How the results depend on the processing

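The 8 genes had 4 calls, and the other steroid genes 14, of 617 over all genes. Leaving out 1 library gave 1 to 4 calls among the 8 genes (1 without WT replicate 1 or 2), 3 to 18 among the other steroid genes and 100 to 802 over all genes. Without ALAS1/2-KO replicates 1 and 2 together there were 6, 22 and 1130 calls. With CPM rescaled to listed reads there were 5, 31 and 2735 (2533 higher and 202 lower over all genes, against 352 and 265), with the median of all genes at 0.32. Scaling that left out mitochondrial genes and those of highest level gave 238 higher and 324 lower. Limma without trend gave 4, 9 and 355. The replicate block, on the 6 libraries with numbers found in both groups, gave 2, 3 and 86 calls, with Cyp17a1 and Hsd17b6 the 2 kept. The numbers pair nothing in the labels, and deviations of same-numbered libraries correlated at -0.03, 0.05 and 0.18 over genes, no WT library being closest to its own number. No called gene of the 8 reversed. Not called, Hsd3b2 and Hsd3b3 changed sign with rescaled CPM (0.00 and 0.13) and Hsd17b2 without ALAS1/2-KO replicates 1 and 2 (-0.01). Depth limits Hsd3b5 most, at 19 to 172 reads per ALAS1/2-KO library.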

Other observations

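Of 12 nearest tested neighbours that are not among the 8, chosen after values were seen, 1 passed in limma, where 5.1% of all genes did, and nothing is read from that count. Sdr9c7, a short-chain dehydrogenase gene 79.2 kb from Hsd17b6, went from 35.8 ± 1.01 CPM in WT to 20.01 ± 3.97 CPM in ALAS1/2-KO (SD, n = 3 and 4, log2 fold change -0.86, limma adjusted p = 0.0232), while Hsd17b6 was higher. Prim1, 7.56 kb from Hsd17b6 on the other side, had a log2 fold change of -0.63 and was not called (limma adjusted p = 0.0879). Wbp1l and Borcs7, on either side of Cyp17a1, had log2 fold changes of 0.20 and -0.14.

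Likeness of profile was measured as the root-mean-square difference between log2 CPM over the 7 libraries, each gene centred on its mean. Cyp17a1 was nearest to Tmem200b (0.19) and Rab3b (0.32), and its nearest among the 8 was Hsd3b5 (1.10). Hsd3b5, with a root-mean-square of 2.06 about its own mean, was nearest to Myo15b (0.63) and Adh7 (0.67). Such differences grow with a gene's own spread and do not rank the matches of different genes. Hsd17b6 was nearest to Gask1a (0.28) and G6pdx (0.30), and Srd5a1 to Mfsd7a (0.11) and Plekha7 (0.13). Hsd3b3, with its high ALAS1/2-KO replicates 1 and 2, was nearest to Atg7 (0.05) and Ccdc61 (0.09), and Hsd17b2 to Mthfd2l (0.07) and Zfp36 (0.09). Hsd3b2 was near Hjv (0.07), and Hsd11b1 was nearest to Ndrg3 (0.04) and Sertad2 (0.05). With 7 libraries and 12105 genes, close matches for genes of small spread are easily found.

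Akr1d1, the steroid beta-reductase of bile acid synthesis, chosen after its values were seen, resembled Hsd3b3 and Hsd17b2 in ALAS1/2-KO. It stood at 133, 121, 55.2 and 63.6 CPM in replicates 1 to 4 and at 85.5, 87.3 and 72.6 CPM in WT (log2 fold change 0.09, limma adjusted p = 0.892). The part of the non-parenchymal cells, whose markers were lowest in replicates 1 and 2, was not tested.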
